A study of Mus musculus with 6 samples.

Results

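The genes for eukaryotic translation initiation factors (Eif genes) were followed in E0771 cells, a mouse breast carcinoma line of the C57BL/6 strain, after knockdown of lamin A/C. They were taken as every gene of the count table whose symbol begins with Eif and a digit, without the eIF2 kinases (Eif2ak genes), which gave 43 of 10520 genes. The comparison is between 3 shControl libraries, from cells carrying the empty pLKO.5-puro vector, and 3 shLmna libraries, from cells carrying a lamin A/C shRNA in the same kind of vector. Both arms received lentivirus and were selected with puromycin, so that each is a selected population of transduced cells and not a clone. The labels do not say that the 3 libraries of an arm came from separate cultures, and p-values therefore measure only the spread between these libraries, which may be technical. The libraries are MARS-seq libraries, which read the 3′ ends of polyadenylated RNA and count each molecule once by its unique molecular identifier (UMI). Eif2s1, which encodes the subunit of eIF2 that the stress kinases phosphorylate, was not analysed here.

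Translation of most mRNAs starts when eIF2, loaded with GTP and the initiator tRNA, joins eIF1, eIF1A, eIF5 and the large multi-subunit factor eIF3 on the small ribosomal subunit, and this complex is recruited to the capped 5′ end through eIF4F, which consists of the cap-binding protein eIF4E, the scaffold eIF4G and the helicase eIF4A. eIF2B recharges eIF2 with GTP after each round and is the step that eIF2 phosphorylation blocks in the integrated stress response, while the 4E-binding proteins, held in check by the kinase complex mTORC1, sequester eIF4E. In carcinoma cells the supply of several of these factors, eIF4E above all, is known to limit the translation of growth-related mRNAs.

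In shLmna cells 6 of the 43 genes fell, and none rose, at an adjusted p under 0.05 (edgeR's quasi-likelihood test, Benjamini-Hochberg adjustment over all 8969 tested genes), where 5.78% of all tested genes fell and 7.96% rose. None rose by DESeq2 or limma-voom either, but some other fits called genes higher. Eif4e rose with a block for the replicate number, and Eif1a, Eif2s2 and Eif4e rose without shControl replicate 3. At an unadjusted p under 0.05 (edgeR), 10 of the 43 were lower and 3 higher, where 13% of all tested genes were lower and 15.3% higher. The 6 were Eif3e, Eif3d and Eif3c of eIF3, Eif2b4 of eIF2B, Eif4a3, the helicase of the exon junction complex, and Eif6, which keeps the large ribosomal subunit apart from the small one. The decrease was deepest in Eif3e, at 31.6% of the shControl level, and the other 5 lay between 60.3% and 72.0% of it.

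RefSeq promoter windows, which run from 250 bases before to 50 bases after a gene's start (build GRCm38.p6), were found for 34 of the 43 genes. The windows of 4 of the 6 genes that fell are shown to let a reader see the bases at their starts. Capitals mark CCGGAAG on either strand (CTTCCGG when read on the other strand), the core of sites bound by ETS family factors. Not every window shown holds it. The window of Eif2b4 lies at chr5:31193090-31193389, that of Eif3c at chr7:126566317-126566616, that of Eif3d at chr15:77970775-77971074 and that of Eif4a3 at chr11:119299994-119300293, all on the minus strand and printed 5′ to 3′.
Eif2b4: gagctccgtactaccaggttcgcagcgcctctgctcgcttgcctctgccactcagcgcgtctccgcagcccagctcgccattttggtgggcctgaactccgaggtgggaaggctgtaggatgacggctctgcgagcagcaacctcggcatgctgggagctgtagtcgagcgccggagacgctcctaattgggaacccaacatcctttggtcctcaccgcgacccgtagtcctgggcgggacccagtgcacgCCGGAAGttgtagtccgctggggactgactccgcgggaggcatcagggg
Eif3c: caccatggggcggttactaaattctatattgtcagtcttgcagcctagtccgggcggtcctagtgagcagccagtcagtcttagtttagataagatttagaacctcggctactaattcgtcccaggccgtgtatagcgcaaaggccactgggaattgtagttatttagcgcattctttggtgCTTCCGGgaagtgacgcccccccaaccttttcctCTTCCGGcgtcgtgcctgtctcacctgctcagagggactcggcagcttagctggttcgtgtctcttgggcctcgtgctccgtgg
Eif3d: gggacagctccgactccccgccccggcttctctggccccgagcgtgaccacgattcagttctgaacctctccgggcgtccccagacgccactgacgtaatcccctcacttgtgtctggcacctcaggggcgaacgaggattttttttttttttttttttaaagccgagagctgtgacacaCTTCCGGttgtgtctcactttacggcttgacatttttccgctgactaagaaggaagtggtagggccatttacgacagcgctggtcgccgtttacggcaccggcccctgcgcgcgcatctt
Eif4a3: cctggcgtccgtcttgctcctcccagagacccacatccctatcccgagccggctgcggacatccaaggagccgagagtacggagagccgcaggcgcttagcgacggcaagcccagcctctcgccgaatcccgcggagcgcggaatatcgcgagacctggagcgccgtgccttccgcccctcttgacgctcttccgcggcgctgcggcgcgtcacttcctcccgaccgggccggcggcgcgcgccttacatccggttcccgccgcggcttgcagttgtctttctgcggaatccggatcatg
No window was matched for Eif3e (chr15:43250058-43282719) and Eif6 (chr2:155819832-155826925), whose gene positions are those of GENCODE on GRCm38, minus strand. The windows of Eif2b4, Eif3c and Eif3d held the motif, Eif3c at 2 positions, and that of Eif4a3 did not. CCGGAAG was found in a window of 14 of the 34 genes (41.2%), against 23.3% of the 6928 tested genes with a window and 8.86% of all 32851 windows. The other genes that held it were Eif1ad, Eif1ax, Eif1b, Eif2b2, Eif3g, Eif3l, Eif3m, Eif4e2, Eif4ebp2, Eif4enif1 and Eif5a. None of these was called, and Eif1ad, Eif1ax, Eif1b and Eif3m had positive log2 fold changes. The letters CACGTG, the E-box bound by Myc and Max, were found in 9 of the 34 genes (26.5%, against 12.4% of tested genes), TATAAA in 2 (5.88%, against 7.97%), and TGATGNAAT, the element bound by the stress factor ATF4, in none (against 0.505%). No motif contains another, all were searched on both strands, and a match describes the letters of the window only. The promoter windows were not tested for any difference.

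The libraries held 1846208 to 3242051 UMIs, and levels are given as CPM, the UMIs of a gene per 1000000 UMIs of the scaled library. Lmna was counted with 2066, 2794 and 1764 UMIs in the shControl libraries and with 1035, 1023 and 713 in the shLmna libraries, a log2 fold change of -1.20 (SE 0.13, adjusted p = 3.55e-05, edgeR). The epithelial markers Krt7, Krt8, Krt18 and Epcam were counted in both arms (summed level 266 to 323 CPM in shControl and 288 to 316 CPM in shLmna), while Krt19 and Cdh1 were not analysed here. Krt8 made up most of the sum (764, 787 and 534 UMIs against 814, 796 and 516). Krt7 had too few UMIs to be tested. Epcam (log2 fold change -0.90, adjusted p = 0.0909, edgeR) and Krt18 (-0.53, adjusted p = 0.453) were lower in value and not called. Of the leukocyte list 2 of 6 markers were in the table. Lyz2 rose (log2 fold change 1.28, adjusted p = 0.011, edgeR), while Cd68 stood at -0.62 and was not called (adjusted p = 0.234). Of the endothelial list 1 of 4 was in the table, Pecam1, which had too few UMIs to be tested (7, 2 and 6 against 2, 5 and 4). Of the fibroblast list 4 of 6 were in the table, and Pdgfrb was higher while Pdgfra was not called (log2 fold change 0.04). The summed level of the fibroblast markers was 18.6 to 18.8 in shControl against 27.2 to 30.8 CPM in shLmna. Their part in the results below was not tested. The shControl libraries stood at plate positions 13 to 15 and the shLmna libraries at 16 to 18, so that position and knockdown cannot be told apart.

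The libraries shControl replicate 3 and shLmna replicate 2 stood apart by UMIs of pigment cell genes, which a breast carcinoma line should lack. Pmel, Mlana, Tyrp1 and Dct (4 of the 5 melanocyte markers, Tyr was not analysed here) summed to 1354 and 1582 UMIs there, against 12 and 7 in the other shControl libraries and 1 and 3 in the other shLmna libraries. Dct was at 0 in both of the other shControl libraries, and Mlana and Tyrp1 were at 0 in both of the other shLmna libraries. Each arm holds 1 such library. In these bulk libraries, fewer cells of a type and less RNA per cell cannot be told apart. The part these transcripts have in the results was not tested, and the fold changes of the genes described in full are therefore also given for the 4 libraries with few melanocyte UMIs, a choice made after the data were seen.

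eIF3 is the largest of the factors and holds the small subunit, the mRNA and eIF4G together. All 12 of its measured subunits passed the filter on low counts. Of these, 10 had a log2 fold change below 0 and 3 fell, where 49.6% of all tested genes lay below 0 and 5.78% fell. In 7 of the 12 every shLmna library lay below every shControl library (Eif3c, Eif3d, Eif3e, Eif3f, Eif3g, Eif3h and Eif3i), which 15.7% of all tested genes also showed in this direction. The median log2 fold change of the 12 was -0.27, against 0.0033 for all tested genes.

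Eif3e encodes a subunit of the eIF3 core that was first known as Int6, a site of mouse mammary tumour virus insertion. It was counted with 89, 85 and 82 UMIs in the shControl libraries and with 16, 41 and 22 in the shLmna libraries, or 35.0 ± 8.46 against 10.9 ± 4.58 CPM (SD, n = 3). The groups did not overlap, and the highest shLmna library was the one with many melanocyte UMIs. Eif3e fell by 1.66 on the log2 scale (SE 0.30, adjusted p = 0.00204, edgeR), and it was the only one of the 43 genes to pass the study's criteria (normalized counts averaging over 5, a change of more than 1 on the log2 scale either way, adjusted p under 0.05), which 5.71% of all tested genes passed, 1.74% as lower and 3.97% as higher. The call was kept without each library in turn, with log2 fold changes from -2.01 to -1.36, and in the 4 libraries with few melanocyte UMIs (-1.84, adjusted p = 0.000349, edgeR). Eif3e is a low-count gene beside the other eIF3 subunits, and 24.3% of the 50-base stretches of its last 1000 transcript bases also occur in the pseudogenes Eif3s6-ps1 to Eif3s6-ps4 (GENCODE), so that reads could be split between copies.

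Eif3d encodes the subunit that can itself bind the cap of some mRNAs. It was counted with 3057, 2419 and 1485 UMIs in shControl and with 1728, 1754 and 999 in shLmna, or 914.4 ± 246.9 against 607.6 ± 66.2 CPM (SD, n = 3). shControl replicate 1 was far above the other libraries, and the groups did not overlap. Eif3d fell by 0.59 on the log2 scale (SE 0.18, adjusted p = 0.0379, edgeR), and by 0.36 without shControl replicate 1, where it was no longer called (adjusted p = 0.185). An antisense gene, Gm17638, overlaps its counted end.

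Eif3c encodes a scaffold of the eIF3 core that contacts eIF1 and eIF5. Its UMIs were 2254, 2823 and 1270 in shControl and 1634, 1464 and 1127 in shLmna, or 813.5 ± 121.0 against 583.1 ± 40.0 CPM (SD, n = 3). The lowest shControl value was that of replicate 3, and it still lay above all 3 shLmna libraries. Eif3c fell by 0.48 on the log2 scale (SE 0.15, adjusted p = 0.0397, edgeR). Both Eif3d and Eif3c lost the call when any library other than shControl replicate 3 was left out, while in the 4 libraries with few melanocyte UMIs Eif3d stood at -0.73 (adjusted p = 0.0149) and Eif3c at -0.54 (adjusted p = 0.0262, edgeR).

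Eif3h, a subunit at the edge of the core, was not called, although its groups did not overlap. Its level was 942.0, 964.9 and 960.3 CPM in shControl and 679.1, 776.5 and 750.9 in shLmna, with a log2 fold change of -0.38 (SE 0.13, adjusted p = 0.0666, edgeR), and DESeq2 called it (adjusted p = 0.036). The other subunits with values below 0 that were not called, Eif3b, Eif3f, Eif3g, Eif3i, Eif3k and Eif3l, had log2 fold changes from -0.27 to -0.13. Eif3a, the largest subunit and a scaffold, and Eif3m were the subunits with values above 0. Eif3a was counted with 265, 284 and 137 UMIs against 355, 265 and 215 (log2 fold change 0.37, SE 0.17, adjusted p = 0.171, edgeR), and its sign turned to -0.23 with a correction for GC content.

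**Figure D1:**
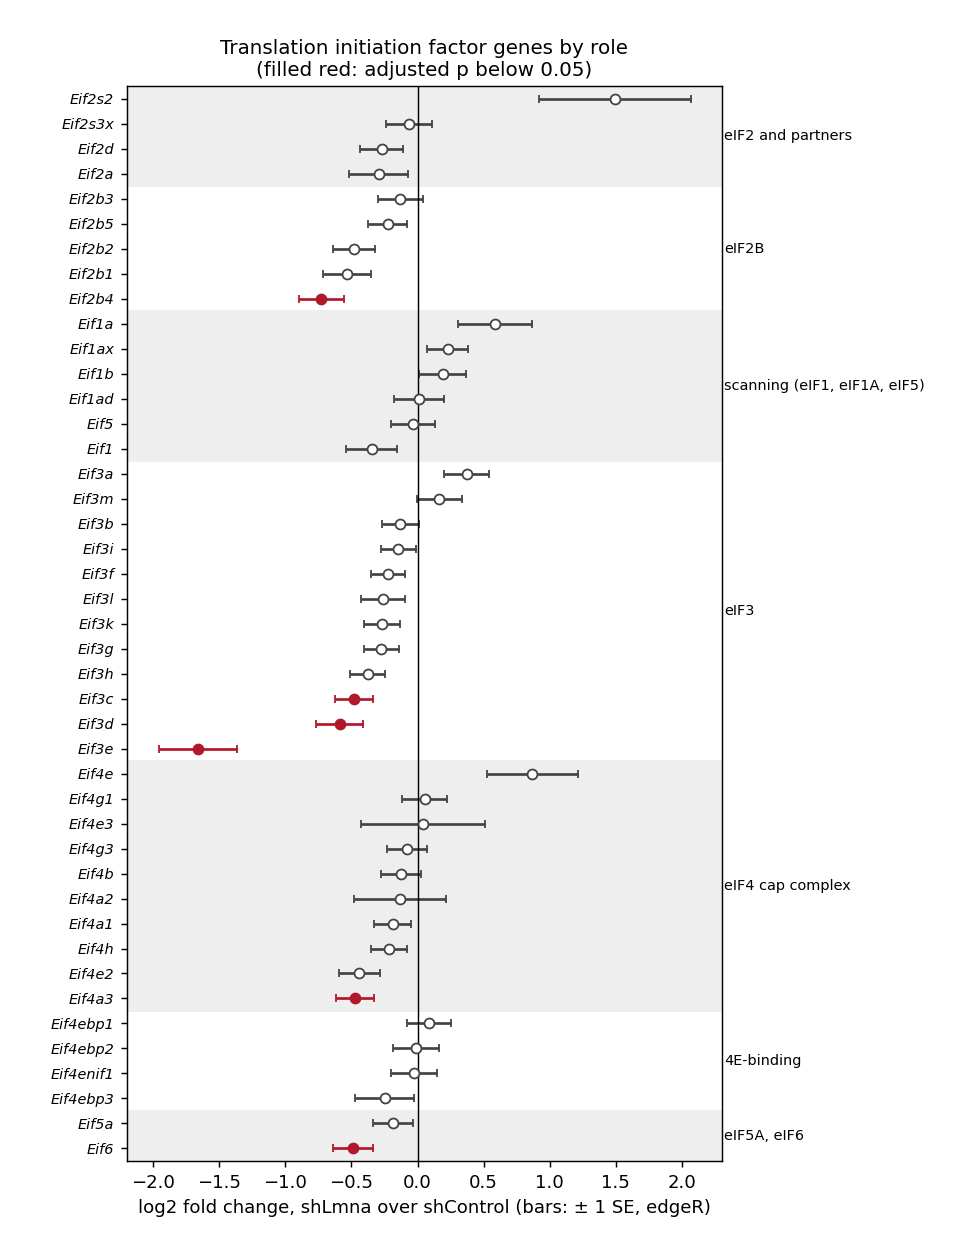
Log2 fold change (shLmna over shControl, horizontal axis) of the 43 genes, ordered by role, with bars of 1 SE from edgeR, and filled red points for an adjusted p under 0.05. The 6 red points all lie left of 0, Eif3e is farthest left at -1.66, and all 5 eIF2B genes lie left of 0.

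eIF2B is built from regulatory subunits, encoded by Eif2b1, Eif2b2 and Eif2b4, and catalytic subunits, encoded by Eif2b3 and Eif2b5. All 5 genes had log2 fold changes below 0, where 49.6% of all tested genes did. They lay between -0.73 and -0.13 with a median of -0.48, and 1 of the 5 fell, where 5.78% of all tested genes fell. The regulatory subunits, which sense phosphorylated eIF2, held the 3 lowest values. A difference between regulatory and catalytic subunits was not tested.

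Eif2b4 was counted with 686, 840 and 378 UMIs in shControl and with 444, 314 and 304 in shLmna, or 244.1 ± 37.8 against 147.8 ± 28.3 CPM (SD, n = 3). The lowest library of each group was the one with many melanocyte UMIs, and the groups did not overlap. Eif2b4 fell by 0.73 on the log2 scale (SE 0.17, adjusted p = 0.0112, edgeR). The call was lost without shControl replicate 2 (-0.67, adjusted p = 0.074, edgeR) or shLmna replicate 2 (-0.57, adjusted p = 0.0577), and was kept in the 4 libraries with few melanocyte UMIs (-0.69, adjusted p = 0.00713). 

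Eif2b2 and Eif2b1 lay just outside the threshold. Eif2b2 was measured at 128.2, 152.0 and 135.8 CPM in shControl and at 91.8, 117.5 and 88.3 in shLmna, without overlap (log2 fold change -0.48, SE 0.16, adjusted p = 0.0539, edgeR). Eif2b1 was measured at 392.2, 309.9 and 245.6 against 262.7, 182.8 and 209.5 CPM, with overlapping groups (log2 fold change -0.53, SE 0.18, adjusted p = 0.065). In the 4 libraries with few melanocyte UMIs both fell, Eif2b2 by 0.64 (adjusted p = 0.0203, edgeR) and Eif2b1 by 0.56 on the log2 scale (adjusted p = 0.0369).

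Of eIF2 itself, the measured genes were Eif2s2 and Eif2s3x, which encode its beta and gamma subunits. They were grouped with Eif2a and Eif2d, whose products can bring initiator tRNA to the ribosome without eIF2. None of the 4 genes was called, and 1 was higher at an unadjusted p under 0.05 (edgeR), where 15.3% of all tested genes were. Eif2s2 had the highest log2 fold change of all 43 genes but very few counts. It was counted with 0, 9 and 8 UMIs in shControl and with 15, 15 and 16 in shLmna, and every shLmna library lay above every shControl library, the only gene of the 43 with that order (16.8% of all tested genes had it). Its log2 fold change was 1.49 (SE 0.58, adjusted p = 0.101, edgeR), and in the 4 libraries with few melanocyte UMIs it was 2.12 and passed the test (adjusted p = 0.031). It also passed without shControl replicate 3 alone (2.01, adjusted p = 0.0295, edgeR), and it was 0.89 (adjusted p = 0.268) without shControl replicate 1, the library with 0 UMIs. Eif2s3x, Eif2a and Eif2d lay between -0.29 and -0.06.

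No gene of the scanning factors was called, nor did any have an unadjusted p under 0.05 (edgeR). Eif1 and Eif1b encode eIF1, Eif1a and Eif1ax encode eIF1A, Eif5 encodes the GTPase activator of eIF2, and Eif1ad a protein related to eIF1A. The log2 fold changes ran from -0.35 (Eif1) to 0.59 (Eif1a) with a median of 0.10. Eif1ax was counted with 373, 580 and 379 UMIs against 491, 621 and 389 (log2 fold change 0.23, SE 0.15, adjusted p = 0.358, edgeR), and it stood at -0.06 with the GC correction.

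Of the 10 genes of the cap complex and its relatives, 1 fell, where 5.78% of all tested genes fell. Eif4a3 encodes a DEAD-box helicase that, unlike its paralogues, works in the exon junction complex deposited at splicing. It was counted with 1605, 1991 and 1076 UMIs in shControl and with 1048, 1099 and 974 in shLmna, or 607.6 ± 32.0 against 438.1 ± 69.4 CPM (SD, n = 3). The shControl libraries lay close together, shLmna replicate 3 was the highest of its group, and the groups did not overlap. Eif4a3 fell by 0.47 on the log2 scale (SE 0.14, adjusted p = 0.0411, edgeR). It lost the call in the 4 libraries with few melanocyte UMIs (-0.46, adjusted p = 0.0788) and without shControl replicate 1 or 2 or shLmna replicate 1 or 2, and 28.4% of its 50-base stretches also occur in the annotated genes Gm5576, Gm5580 and Gm8994.

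Eif4e, whose product binds the cap, went the other way in value. It was counted with 18, 42 and 50 UMIs in shControl and with 58, 90 and 51 in shLmna, or 15.6 ± 9.96 against 27.3 ± 5.65 CPM (SD, n = 3). The groups overlapped through shControl replicate 3, a library with many melanocyte UMIs, at 26.5 CPM. Its log2 fold change was 0.87 (SE 0.34, adjusted p = 0.107, edgeR), and Eif4e passed the test at 1.23 in the 4 libraries with few melanocyte UMIs (adjusted p = 0.0102) and at 1.39 without shControl replicate 3 alone (adjusted p = 0.00214). Without shControl replicate 1, which had the fewest UMIs, it was 0.51 (adjusted p = 0.326), and without shLmna replicate 2, 0.70 (adjusted p = 0.278, edgeR). Eif4e2, which encodes a cap-binding relative that represses translation, was measured at 502.0, 491.2 and 378.3 against 354.2, 286.4 and 371.7 CPM, without overlap (log2 fold change -0.44, SE 0.15, adjusted p = 0.0733, edgeR).

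The helicase and the scaffold of eIF4F were not called. Eif4a1 was counted with 2299, 3122 and 1734 UMIs against 2494, 2098 and 1410 (log2 fold change -0.19, SE 0.14, adjusted p = 0.399, edgeR). Eif4g1 was counted with 982, 854 and 644 UMIs against 1016, 1011 and 520 (log2 fold change 0.05, SE 0.17, adjusted p = 0.877). The groups of both genes overlapped. The remaining genes of this role, Eif4a2, Eif4b, Eif4e3, Eif4g3 and Eif4h, were not called and lay between -0.22 and 0.04.

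None of the 4 genes whose products bind eIF4E to hold it back was called. Eif4ebp1, the 4E-binding protein under mTORC1, was counted with 2867, 2913 and 1716 UMIs in shControl and with 3241, 2185 and 2102 in shLmna (log2 fold change 0.09, SE 0.17, adjusted p = 0.776, edgeR). The groups overlapped, and the sign was lost with the GC correction (-0.04). Eif4ebp2, Eif4ebp3 and Eif4enif1 lay between -0.25 and -0.01.

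Eif6 and Eif5a act outside the start codon search. Eif6 was counted with 1895, 1744 and 1091 UMIs in shControl and with 1278, 1226 and 757 in shLmna, or 622.4 ± 105.9 against 443.9 ± 38.6 CPM (SD, n = 3). As with Eif3d, shControl replicate 1 was the highest library and the groups did not overlap. Eif6 fell by 0.49 on the log2 scale (SE 0.15, adjusted p = 0.0434, edgeR), was still called in the 4 libraries with few melanocyte UMIs (-0.54, adjusted p = 0.0451), and lost the call without any library other than shControl replicate 3. Eif5a, the hypusine-bearing factor that helps ribosomes through difficult peptide bonds, had the highest CPM of the 43 genes (3084 ± 333.8 against 2713 ± 397.4 CPM, SD, n = 3) and was not called (log2 fold change -0.18, SE 0.15, adjusted p = 0.454, edgeR).

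**Figure D2:**
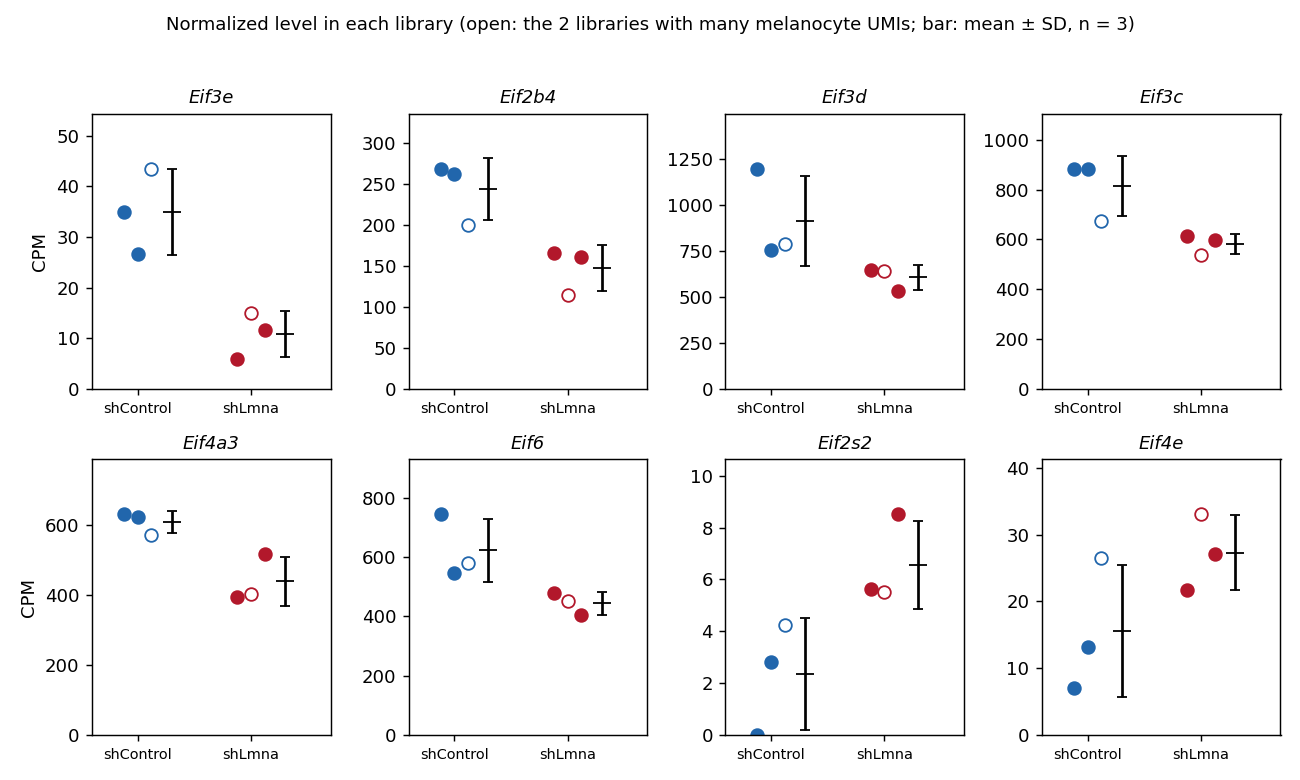
Normalized level (CPM, vertical axis from 0) of the 6 genes that fell and of Eif2s2 and Eif4e in each shControl (blue) and shLmna (red) library, with the mean and SD (n = 3) beside them, and open symbols for the 2 libraries with many melanocyte UMIs. In the 6 genes every red point lies below every blue one, and in Eif4e the open blue point at 26.5 lies among the red points.

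Seen against the whole transcriptome, the 6 genes that fell make up 14% of the 43, and the share of all tested genes called in either direction was 13.7%, which is near it. The 10 genes that were lower at an unadjusted p under 0.05 compare with 13% of all tested genes, and the 3 that were higher, Eif2s2, Eif4e and Eif3a, with 15.3%. Of the 43 genes 32 had a log2 fold change below 0, or 74.4%, against 49.6% of all tested genes. Their median was -0.18, against 0.0033 for all tested genes. In 12 of the 43 (27.9%) the shLmna libraries all lay below the shControl libraries, against 15.7% of all tested genes. These counts describe the list and were not tested. With scaling by library totals in place of TMM, Eif3e and Eif2b4 were still called, and Eif3c, Eif3d, Eif4a3 and Eif6 were not (adjusted p from 0.0504 to 0.0639, edgeR).

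**Figure D3:**
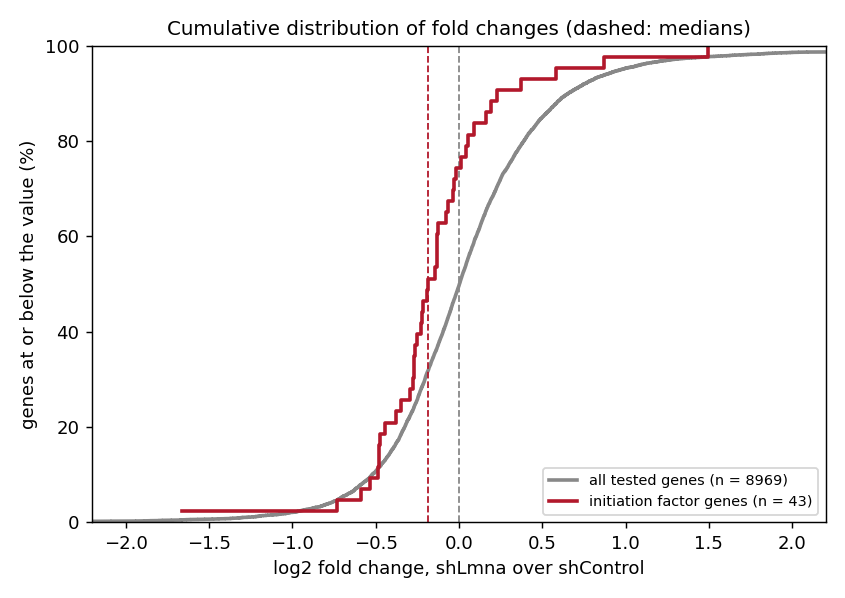
Share of genes (vertical axis, %) at or below each log2 fold change (horizontal axis) for the 43 initiation factor genes (red) and all 8969 tested genes (grey), with dashed lines at the medians. The red curve lies left of the grey one through the middle of the range, with medians of -0.18 and 0.0033.

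As a share of all UMIs of a library, the 43 genes together took 1.87%, 1.82% and 1.78% in shControl and 1.61%, 1.61% and 1.57% in shLmna. The groups did not overlap, and the means were 1.82% ± 0.0462 and 1.60% ± 0.0214 (SD, n = 3). The eIF3 genes, which supplied the largest part, took 0.760% ± 0.0336 and 0.646% ± 0.0112, and the eIF2B genes 0.0966% ± 0.0108 and 0.0727% ± 0.00421 (SD, n = 3), both without overlap. The 10 genes of the cap complex and its relatives, Eif4a3 and Eif4e2 among them, took 0.316% ± 0.00734 and 0.278% ± 0.00378. The scanning factors (0.152% ± 0.0146 and 0.138% ± 0.0141) and the 4E-binding genes (0.117% ± 0.0106 and 0.126% ± 0.0204) overlapped between the arms.

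**Figure D4:**
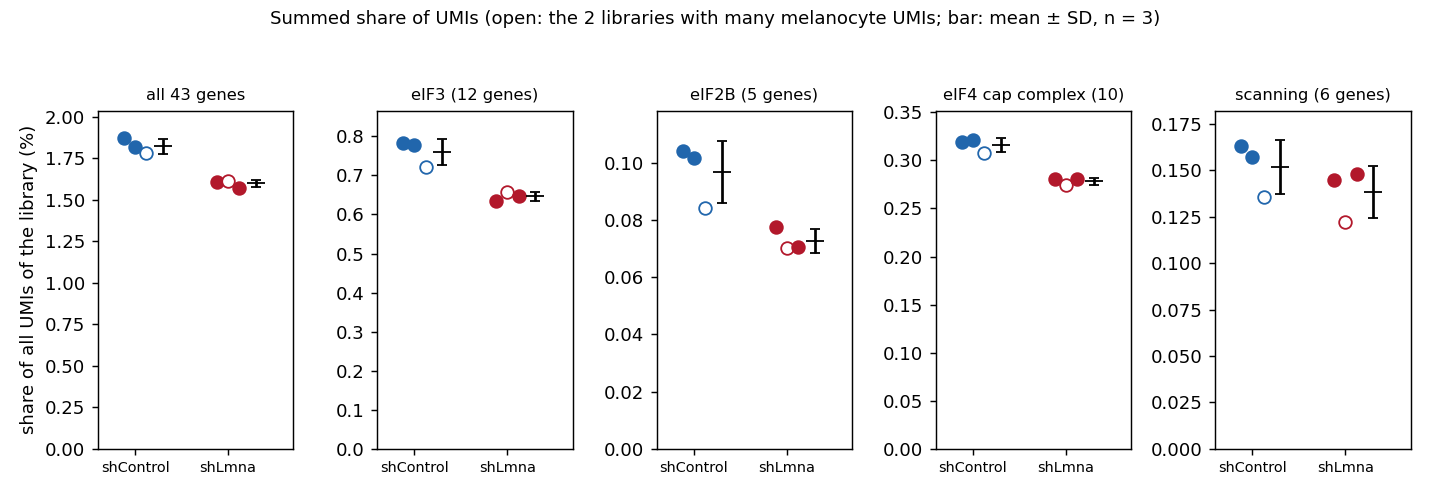
Share of all UMIs of each library (vertical axis, %, from 0) in all 43 genes and in 4 of their roles, for shControl (blue) and shLmna (red), with the mean and SD (n = 3), and open symbols for the libraries with many melanocyte UMIs. Blue and red points are apart in the first 4 panels and overlap for the scanning factors.

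In the 4 libraries with few melanocyte UMIs, 42 of the genes were tested (Eif4e3 fell under the filter), 7 fell and 2 rose, against 5.45% and 7.7% of all genes tested there, 13.2% together. The 7 were Eif2b1, Eif2b2, Eif2b4, Eif3c, Eif3d, Eif3e and Eif6, and the 2 were Eif2s2 and Eif4e. Lmna stood at -1.13 there (adjusted p = 4.86e-05, edgeR), and Eif1ax, Eif3a, Eif3h, Eif4a1, Eif4e2, Eif4ebp1, Eif4g1 and Eif5a were not called, with log2 fold changes from -0.45 to 0.37. With 2 libraries a group, this fit rests on the spread it pools over genes. With a term for the melanocyte UMIs in all 6 libraries, 11 of the 43 fell and Eif4e rose, against 9.34% and 11.5% of all tested genes, 20.8% together.

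**Figure D5:**
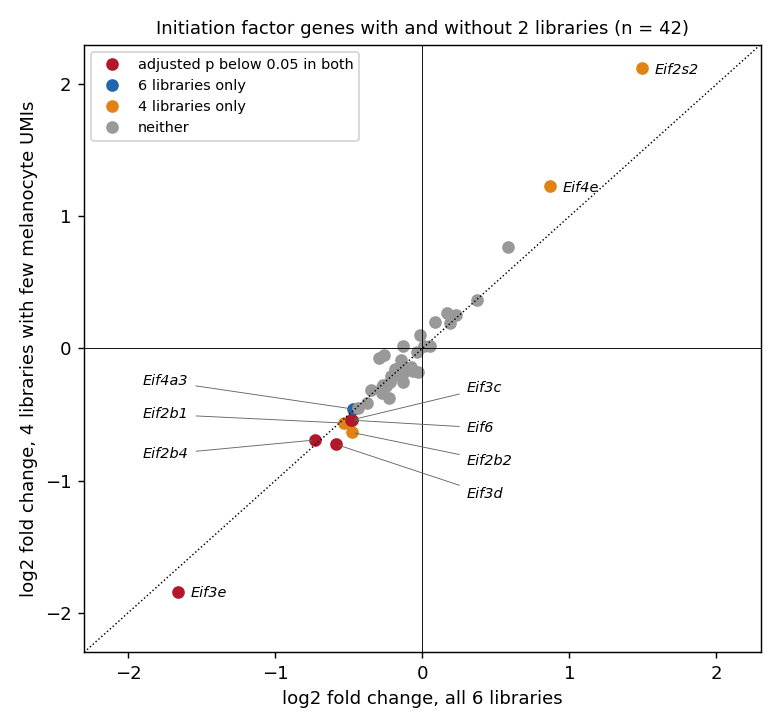
Log2 fold change (shLmna over shControl) of 42 genes in all 6 libraries (horizontal axis) and in the 4 libraries with few melanocyte UMIs (vertical axis), coloured by which fit had an adjusted p under 0.05, with the line of equal values. The points lie near the line, Eif4a3 is called with all 6 libraries only, and Eif2b1, Eif2b2, Eif2s2 and Eif4e with the 4 libraries only.

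Several factors exist as pairs of paralogues, and the share of the lesser member in the UMIs of its pair was compared between the arms in 6 pairs by an exact permutation test (two-sided, smallest possible p 0.1 with 3 libraries against 3). The share of Eif4e in Eif4e and Eif4e2 was 3.52% ± 2.70 in shControl and 7.64% ± 2.39 in shLmna (SD, n = 3, exact p = 0.2, 0.75 after adjustment over the 6 pairs). The other pairs, Eif4a2 with Eif4a1, Eif4g3 with Eif4g1, Eif1b with Eif1, Eif1a with Eif1ax and Eif4ebp2 with Eif4ebp1, had exact p-values from 0.3 to 0.8. All 6 pairs overlapped between the arms.

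Features of the counted ends were compared as a description. The GC content of the last 1000 transcript bases had a median of 47.3% over the 43 genes, as over all tested genes, and of 52.6% over the 6 that fell. Over the 43 genes the log2 fold change fell with GC content (Pearson's r -0.29, Spearman's rho -0.41) and with the level (r -0.38, rho -0.42). The points share the 6 libraries with their depth and base composition, and no test was made. With the GC correction the same 6 genes fell. In 15 of the 43 genes some of the 50-base stretches recur in another annotated gene, over 10% of them in 9, with the highest shares in Eif4ebp3 (65.5%), Eif3m (48.9%) and Eif4a1 (43.2%).

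Around the initiation factors, lists of other translation genes were counted in the same fit. The lists were written with earlier results of these data known. The share called within a list may therefore depend on how its genes were picked, and no share was tested. None of the 11 measured elongation genes was called, where 13.7% of all tested genes were. At an unadjusted p under 0.05 3 of the 11 were lower (edgeR), where 13% of all tested genes were. All 11 had log2 fold changes below 0, against 49.6% of all tested genes, with a median of -0.16 (the lowest -0.46). Of the 8 measured termination and recycling genes, 5 had log2 fold changes above 0, 37.5% lay below 0, and the median was 0.39. At an unadjusted p under 0.05 3 were higher and 2 lower (edgeR), where 15.3% of all tested genes were higher and 13% lower. None of them rose, and 1 fell, or 12.5%, where 5.78% of all tested genes fell. It was the ribosome rescue factor Hbs1l (530, 772 and 335 UMIs against 430, 341 and 239, log2 fold change -0.60, SE 0.16, adjusted p = 0.0208, edgeR). Hbs1l lost the call without shControl replicate 2, shLmna replicate 2 or shLmna replicate 3.

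Of the 18 tested partners of the initiation factors, 4 rose and 1 fell, or 27.8% called, where 13.7% of all tested genes were called (7.96% higher and 5.78% lower). These shares describe a list chosen with earlier results known, and their difference was not tested. Ddx3x, an RNA helicase that helps structured mRNAs into initiation, was counted with 4, 4 and 10 UMIs in shControl and with 83, 83 and 62 in shLmna. The groups were far apart, with a log2 fold change of 3.68 (SE 0.36, adjusted p = 1.33e-05, edgeR). Habp4, an RNA-binding protein, rose from 116, 122 and 67 UMIs to 195, 194 and 155 (0.92, SE 0.17, adjusted p = 0.00222). Bzw1, a regulator related to eIF5, was counted with 1, 18 and 39 UMIs against 60, 86 and 57 (1.80, SE 0.54, adjusted p = 0.0383) and lost the call without any library but shControl replicate 3. Leaving out 1 library moved Bzw1 between 1.20 and 3.08, and DESeq2 did not call it (adjusted p = 0.426). Mknk2 also rose, from 264, 346 and 217 UMIs to 409, 378 and 289 (0.45, SE 0.14, adjusted p = 0.0442, edgeR). Mknk2 lost the call without any library but shControl replicate 3 and was not called by DESeq2 (adjusted p = 0.0562). Pabpc1, the poly(A)-binding protein that contacts eIF4G, fell from 2208, 4468 and 2237 UMIs to 1938, 2395 and 1403 with overlapping normalized levels (-0.55, SE 0.17, adjusted p = 0.0426). It lost the call without shControl replicate 2, shLmna replicate 1 or shLmna replicate 3, with values from -0.73 to -0.39 over the libraries left out in turn.

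Of the 15 tested genes of the eIF2 kinases and the integrated stress response, 3 fell and none rose, or 20% lower, where 5.78% of all tested genes fell. At an unadjusted p under 0.05, 5 were lower and 0 higher (edgeR), where 13% of all tested genes were lower. This list too was chosen with earlier results known, and its shares were not tested. Ppp1r15a, which brings the phosphatase to eIF2, was counted with 470, 464 and 279 UMIs in shControl and with 155, 130 and 92 in shLmna (log2 fold change -1.62, SE 0.16, adjusted p = 1.77e-05, edgeR). Ddit3, the stress transcription factor CHOP, was counted with 430, 570 and 225 UMIs against 206, 192 and 112 (-1.17, SE 0.18, adjusted p = 0.000542). Trib3, a pseudokinase induced by CHOP, was counted with 198, 198 and 163 UMIs against 80, 117 and 87 (-0.92, SE 0.20, adjusted p = 0.00654). All 3 kept the call without each library in turn. Of the 15 genes, 6 had log2 fold changes above 0. Atf4 (-0.17, adjusted p = 0.462), Asns (-0.24, adjusted p = 0.245), Chac1 (0.17, adjusted p = 0.597) and Ppp1r15b (0.40, adjusted p = 0.202, edgeR) were among those not called. Of the 18 tested genes of mTORC1 and its regulators, 1 rose and none fell, or 5.56% called, where 13.7% of all tested genes were called. It was the Rag GTPase gene Rraga (52, 98 and 75 UMIs against 138, 150 and 121, log2 fold change 0.92, SE 0.22, adjusted p = 0.0119, edgeR). Rraga lost the call without shControl replicate 1, shControl replicate 2 or shLmna replicate 3. In the 4 libraries with few melanocyte UMIs each gene of the other lists that fell or rose here was called in the same direction. Among them were Ddx3x at 4.48, Bzw1 at 2.98 (adjusted p = 8.72e-05, edgeR) and Pabpc1 at -0.62 (adjusted p = 0.0338).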

How the data were processed

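MARS-seq libraries of E0771 cells, 3 shControl and 3 shLmna, were grouped by the genotype and description of their labels (in the titles, shLmna libraries carry the name shRNA4). The authors trimmed reads with Cutadapt, mapped them to mm10 with STAR 2.4.2a and counted UMIs with HTSeq in a window at each RefSeq gene's 3′ end (the final 1000 bases and 100 beyond). The deposited counts are whole numbers without normalization, and every gene of the table reaches at least 6 UMIs in some library. The authors' log2 table corrected with ComBat and their DESeq2 comparison (fold changes and p-values) were not used.

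Low counts were filtered (filterByExpr, minimum count 10), which left 8969 of 10520 genes, and these were scaled by TMM and compared with the quasi-likelihood test of edgeR 4.0.16 in R 4.3.3, without a replicate block, with Benjamini-Hochberg adjustment over all tested genes. CPM use the TMM-scaled library size. An SE is the absolute log2 fold change divided by the square root of the F statistic. Alternatives were other scalings and filters, DESeq2 1.42.0, limma-voom 3.58.1, a replicate block, a GC correction (a loess curve for each library, span 0.3), each library left out in turn, and, added after the data were seen, the 4 libraries with few melanocyte UMIs (under 100 CPM of the summed markers) and a term for those UMIs. Ends and overlaps came from GENCODE M21 (GRCm38), matched for 10468 genes, and promoter windows from RefSeq. The steps were tested on simulated data. There edgeR recovered 100% of 200 genes changed 3-fold and 31% (62 of 200) of those changed 1.5-fold. Changes of the smaller size can thus go uncalled. False calls numbered 17 and 3 in these runs, and 1 where no gene was changed. The changed genes were drawn from those with an expected mean count of at least 50, so the recovery does not cover genes with fewer counts.

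The genes and lists were chosen with earlier results of these data known. Named in full were every initiation factor gene with an adjusted p under 0.05 and Eif4e, Eif4a1, Eif4g1, Eif4ebp1, Eif1ax, Eif5a and Eif6, with Lmna and up to 4 called genes of each list. Values of Eif2b1, Eif2b2, Eif2s2, Eif3a, Eif3h and Eif4e2 were added after they were seen. So were those of Mknk2, Atf4, Asns, Chac1 and Ppp1r15b, and of single cell type markers.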

Additional observations from a re-analysis of the deposited data

How the results depend on the processing

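The count of initiation factor genes that fell was 6 with TMM, RLE or upper-quartile scaling, without a filter and with limma-voom, 7 with DESeq2, 4 with a mean count of at least 50 (Eif3d and Eif6 not called), and 2 with library totals only, where Eif2b4 and Eif3e were left and the median log2 fold change was -0.13. With a melanocyte UMI term 11 fell. Leaving out 1 library gave 1 to 9 that fell, 0 to 3 that rose, 1 to 3 by the study's criteria and medians from -0.20 to -0.13. The lowest count, 1, was without shControl replicate 2 and the highest, 9, without shControl replicate 3. The count that rose was 2 in the 4 libraries with few melanocyte UMIs, where 3 genes passed the study's criteria, and 1 (Eif4e) with a melanocyte UMI term. The median was below 0 in every fit. The cause of these differences was not tested.

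With the replicate block 8 initiation factor genes fell, Eif2b1 and Eif2b2 in addition, and 1 rose, Eif4e (adjusted p = 0.0411, edgeR), while 8 genes of the other lists fell; with the GC correction and the replicate block 7 fell, without Eif3c (adjusted p = 0.0575), and 1 rose. Whether the numbers pair the libraries is not known. After centring on the group means, the libraries numbered 1, 2 and 3 had correlations of 0.35, -0.11 and 0.01 with their counterparts. Of 6 libraries, 2 correlated best with their own number. With 3 libraries a group, these values cannot decide whether the libraries are paired.

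Among all genes, a mean count of at least 50 left 425 that rose (112 by the study's criteria) and 46 that fell by those criteria, and a melanocyte UMI term gave 838 that fell. Leaving out 1 library gave 353 to 882 that rose and 187 to 698 that fell, or 254 to 462 and 92 to 192 by the study's criteria. In the other lists 3 genes rose without a filter, with a mean count of at least 50 or with DESeq2, 10 fell with a melanocyte UMI term, and leaving out 1 library gave 2 to 7 that rose and 3 to 6 that fell. Without a call in any of these fits, Eif1ax turned to -0.061 and -0.0602 (GC correction, alone and with the replicate block), Eif3a to -0.235 and -0.218 and Eif4ebp1 to -0.0405 and -0.0562. Leaving out 1 library, Eif4ebp1 ranged from -0.0473 to 0.25 and Eif4g1 from -0.0857 to 0.186, and the difference in share ranged from -0.273 to 0.333 percentage points for Eif4a2 and from -1.78 to 0.261 for Eif4ebp2. At this depth the low counts of Eif2s2, Eif4e and Eif3e limit the precision of their fold changes.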
